A study of Mus musculus with 8 samples.

Results

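DNA replication genes encode the machinery that copies the genome in S phase, and 40 of them were examined here: loading factors and subunits of the replicative helicase, polymerases and primase, the sliding clamp and its loader, the single-strand binding protein RPA, enzymes of Okazaki fragment processing and deoxynucleotide supply, and a histone chaperone. The 40 were given as a list of symbols, and each matched 1 of the 39056 rows of the deposited count table. RNA had been sequenced from CD4+ T cells sorted from the combined spleen and lymph nodes of mice whose T cells expressed 1 of 2 retrovirally delivered TCR alpha chains, SAS (4 libraries, replicates 1, 2, 3 and 6) or ANT (4 libraries, replicates 1, 3, 4 and 5). Both groups were of strain C57BL/6J and carried the genotype CD4-Cre TCRβtg Tcra-/-, so a TCR beta transgene and the loss of the endogenous alpha chain gene were common to both. The only stated difference was the alpha chain construct given to the bone marrow inoculum. Each group is thus 1 receptor clone, and neither ages nor the number of mice behind a library were given in the sources used here. It is also not stated that the libraries came from separate animals, and a p-value here weighs a difference against library-to-library spread that may be partly technical.

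A resting T cell lies outside the cell cycle and keeps much of the replication machinery at a low level. In G1, the origin recognition complex (ORC) with Cdc6 and Cdt1 loads the MCM helicase onto chromatin, a step called licensing, and at the start of S phase Cdc45, the GINS complex and Mcm10 turn the loaded helicase into an active one. Many of these genes are known targets of E2F transcription factors, which are held back by the retinoblastoma family of proteins in quiescent cells, and in lymphocytes they are induced when a receptor signal drives the cell into division.

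The sequence at the transcription start sites of the 40 genes was read from RefSeq promoter windows of 300 bases (build GRCm38.p6). Windows were found for 33 of the 40 genes, 37 in all. They were searched on both strands for the letters TTTGGCGC, TTTCCCGC, TTTGCCGC or TTTCGCGC, spellings of the E2F consensus, and for CCAAT, the box bound by nuclear factor Y. An E2F spelling stood in 13 of the 37 windows (35.1%) and in 744 of all 32851 mouse windows (2.26%). CCAAT stood in 22 of the 37 (59.5%) and in 37.4% of all windows, and TTTGAA, the core of the cell cycle homology region of genes expressed late in the cycle, in 4 of the 37 (10.8%) and in 17.9% of all. Matches to the E2F letters were found for 9 of the 18 genes that rose in SAS and had a window, and for 4 of the other 15 with one. Fen1, Lig1 and Mcm7, all among the 18, had more windows than the other genes, so more sequence was searched for the genes that rose. A match describes the letters only and is not evidence of a bound site, and its part in the differences between the clones was not tested. Shown are the windows of the 2 members with the smallest p among those that rose (Tk1 and Chaf1a), of the member that fell (Rpa1), of the most abundant member that passed no test (Pcna), and, chosen after the search, of Mcm6 and Mcm3, which rose and hold 3 and 2 matches to the E2F letters. Capitals mark the E2F letters in runs of at least 8 and CCAAT, or its complement ATTGG, in runs of 5. E2F-like sequences outside the 4 spellings were not searched for and stay in lower case.
Tk1, chr11:117825965-117826264, minus strand: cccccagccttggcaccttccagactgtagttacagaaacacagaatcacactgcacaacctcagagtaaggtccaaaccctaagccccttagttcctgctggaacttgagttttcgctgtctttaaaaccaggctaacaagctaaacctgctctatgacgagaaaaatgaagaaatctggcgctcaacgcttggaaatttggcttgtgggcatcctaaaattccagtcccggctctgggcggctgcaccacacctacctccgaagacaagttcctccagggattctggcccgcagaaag
Chaf1a, chr17:56040166-56040465, plus strand: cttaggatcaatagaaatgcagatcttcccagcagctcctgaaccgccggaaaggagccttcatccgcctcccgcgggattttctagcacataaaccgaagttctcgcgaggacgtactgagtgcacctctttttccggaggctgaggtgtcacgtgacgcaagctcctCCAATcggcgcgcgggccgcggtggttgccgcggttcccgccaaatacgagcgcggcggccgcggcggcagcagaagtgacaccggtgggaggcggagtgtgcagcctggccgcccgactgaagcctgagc
Rpa1, chr11:75348334-75348633, minus strand: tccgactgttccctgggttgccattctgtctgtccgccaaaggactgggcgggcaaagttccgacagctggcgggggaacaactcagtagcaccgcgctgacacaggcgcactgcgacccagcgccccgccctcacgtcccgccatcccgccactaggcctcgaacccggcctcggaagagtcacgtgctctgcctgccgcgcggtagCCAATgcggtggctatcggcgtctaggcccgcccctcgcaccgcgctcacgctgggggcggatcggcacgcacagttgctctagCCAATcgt
Pcna, chr2:132253131-132253430, minus strand: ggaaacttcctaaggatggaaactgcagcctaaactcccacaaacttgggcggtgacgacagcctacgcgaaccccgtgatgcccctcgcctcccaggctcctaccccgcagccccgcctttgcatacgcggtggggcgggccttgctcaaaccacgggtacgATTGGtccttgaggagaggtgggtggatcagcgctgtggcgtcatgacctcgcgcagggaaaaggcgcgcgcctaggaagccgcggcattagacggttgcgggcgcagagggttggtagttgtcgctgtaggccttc
Mcm6, chr1:128359656-128359955, minus strand: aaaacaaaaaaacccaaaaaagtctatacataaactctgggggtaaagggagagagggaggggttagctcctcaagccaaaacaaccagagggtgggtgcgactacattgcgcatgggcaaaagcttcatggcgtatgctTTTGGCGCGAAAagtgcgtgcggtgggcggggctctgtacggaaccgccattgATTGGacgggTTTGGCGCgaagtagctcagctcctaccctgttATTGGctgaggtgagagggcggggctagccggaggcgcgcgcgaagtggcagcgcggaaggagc
Mcm3, chr1:20820263-20820562, minus strand: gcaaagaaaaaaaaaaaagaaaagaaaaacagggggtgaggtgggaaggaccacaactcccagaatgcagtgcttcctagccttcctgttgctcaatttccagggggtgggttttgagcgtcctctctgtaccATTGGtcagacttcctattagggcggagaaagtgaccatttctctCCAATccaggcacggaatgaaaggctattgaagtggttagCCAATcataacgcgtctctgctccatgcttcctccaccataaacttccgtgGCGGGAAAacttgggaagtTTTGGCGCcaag
In the Mcm6 window 2 of the 3 matches overlap, on opposite strands, and no E2F match shares a base with a CCAAT box in any of the 6 windows.

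Library totals were 27600959 to 31810799 counts and did not separate the clones (exact two-sided permutation p = 0.886). Levels are given in CPM (counts scaled to a common library size after TMM normalization), always in the replicate order 1, 2, 3 and 6 for SAS and 1, 3, 4 and 5 for ANT. Differences are log2 fold changes, SAS minus ANT, from edgeR's quasi-likelihood test over 12619 genes, with the standard error (SE) and the Benjamini-Hochberg adjusted p, and a gene was called at an adjusted p under 0.05. The 10 T cell markers, Lck the most abundant, summed to 5159 to 5735 CPM in SAS cells and 5123 to 5967 CPM in ANT cells, and 6 of them, Cd4 and Cd3e included, were not called. Cd28 (log2 fold change 0.74, adjusted p 0.00237) and Zap70 (0.86, adjusted p 0.000134) were higher in SAS, and Lat (−0.45, adjusted p 0.0117) and Trac (−0.65, adjusted p 0.000293) were lower. Of 10 B cell markers the summed level was 1.51 to 3.82 CPM in SAS cells and 4.66 to 5.55 CPM in ANT cells, and of 10 myeloid markers it was 2.04 to 8.13 CPM in SAS cells and 0.956 to 2.38 CPM in ANT cells. Among the B cell markers, Bank1 averaged 0.289 CPM in SAS cells and 2.79 CPM in ANT cells (adjusted p 0.000254), while Cd79a, at 0.908 CPM in SAS cells and 0.807 CPM in ANT cells, and Cd79b, at 0.822 CPM in SAS cells and 0.683 CPM in ANT cells, were not called.

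SAS cells held more transcript than ANT cells for 21 of the 40 replication genes, less for 1, and 18 were not called. Over all genes tested, 37.4% were called, 19.8% higher in SAS and 17.7% lower, against 52.5% and 2.5% of the replication genes. Their median log2 fold change was 0.50, and that of all tested genes was 0.00. Calls higher in SAS were 52.8% of all calls, and 64.8% with scaling by library size only, under which 23 replication genes were higher and 1 lower. The 21 were spread unevenly over the roles, with 7 of 10 licensing genes, 4 of 6 helicase activation genes and all 4 nucleotide synthesis genes among them, but 2 of 7 polymerase and primase genes, 1 of 6 clamp and loader genes and 0 of 3 RPA genes. The first of these counts include Orc1 (licensing), Mcm10 (helicase activation) and Tk1 (nucleotide synthesis). These passed the filter on low counts only through their SAS libraries, which ties their passing to being higher in SAS. Among the 21, differences ranged from 0.41 for Mcm2 to 5.28 for Mcm10 on the log2 scale, with 11 genes over 2-fold and 6 over 4-fold. In a bulk sample, a larger share of cells in cycle and more transcript per cell cannot be told apart.

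The 4 SAS libraries all lay above the 4 ANT libraries for 18 of the 40 genes and all below for 2 (Gins3 and Rpa1), against 20.5% and 17.7% of all tested genes. Against a 1.5-fold change rather than 0, 12 replication genes were higher and 0 lower, where 9.55% of all genes were higher and 5% lower. These 12 (Orc1, Cdc6, Mcm5, Mcm6, Mcm10, Cdc45, Gins1, Gins2, Pole, Rrm2, Tk1 and Chaf1a) were also called under every alternative setting tried. All 40 genes passed the filter on low counts. Orc1, Mcm10 and Tk1, which are among these 12, did so only through their SAS libraries, which ties passing to being higher in SAS. Without these 3, 18 of 37 genes were called higher and 1 lower, with a median log2 fold change of 0.41. All 10 genes that averaged under 5 CPM in ANT cells rose, with Orc1, Mcm10 and Tk1 among them, and 11 of the 30 above it did. Among all tested genes on each side of that level 32.7% and 14.8% were higher in SAS, so the level in ANT and the difference are not independent.

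**Figure D1:**
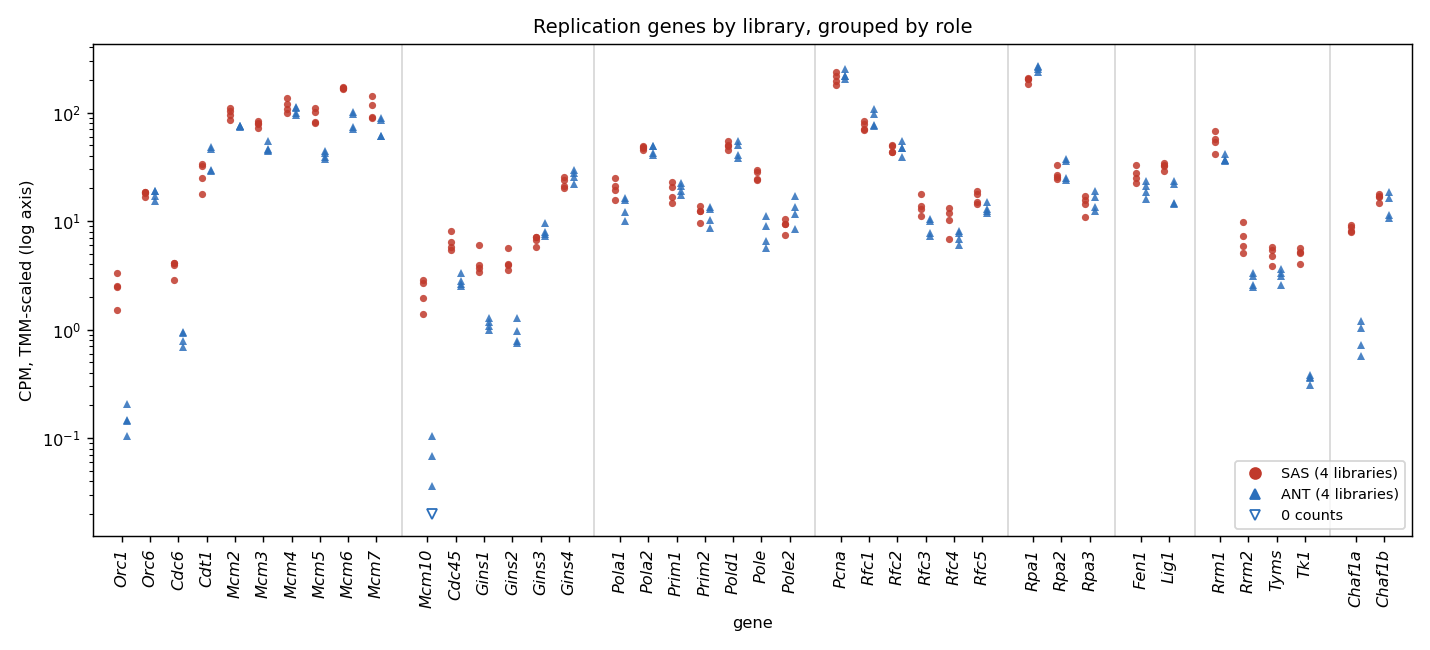
Level of each replication gene in every library, in TMM-scaled CPM on a log axis, with genes grouped by role from licensing on the left to chromatin assembly on the right. Circles are SAS libraries and triangles ANT libraries, and the open triangle marks the ANT library with 0 counts of Mcm10. Orc1, Cdc6, Mcm10, Gins1, Gins2, Tk1 and Chaf1a lie well apart in the clones, and Pcna and Rpa1 are high in both.

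**Figure D2:**
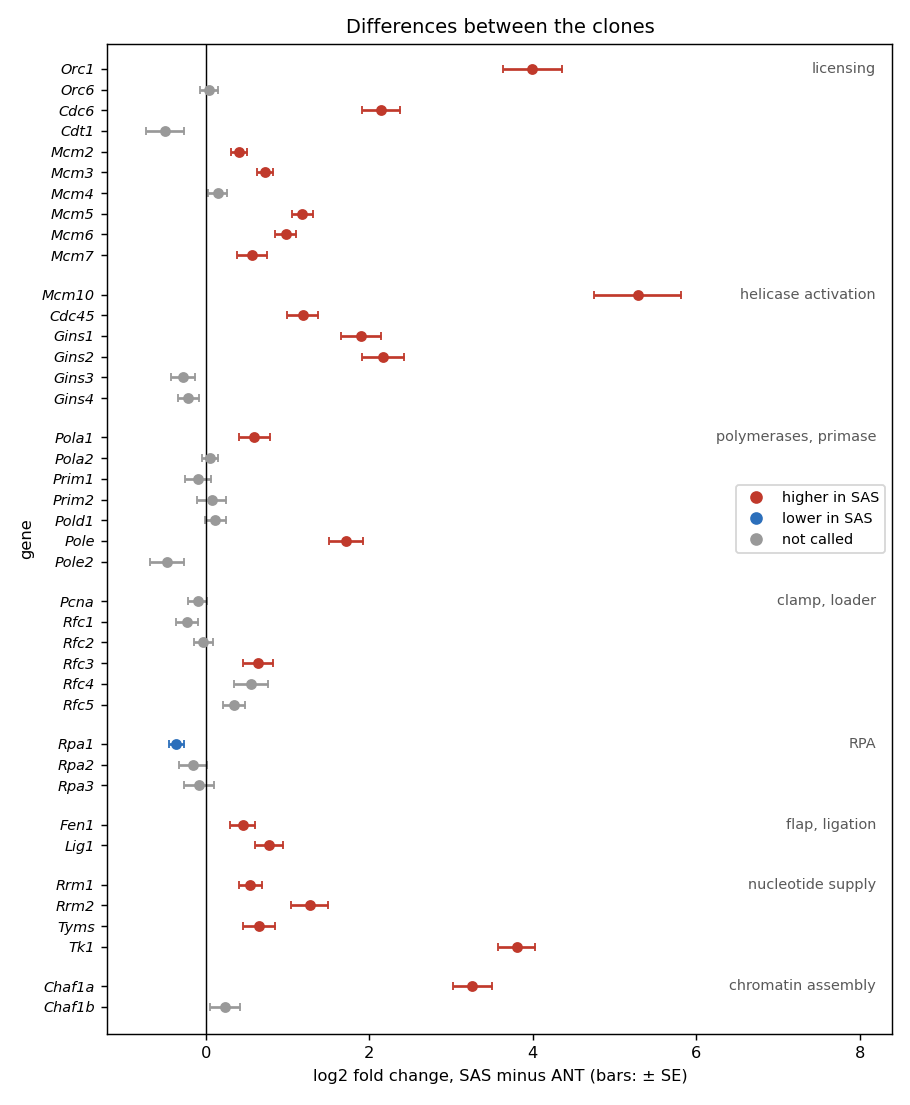
Log2 fold change of SAS minus ANT for each gene, with bars of 1 SE on each side. Points coloured for SAS are the 21 genes called higher, Rpa1 is the gene called lower, and grey points were not called. The largest differences, for Mcm10, Orc1, Tk1 and Chaf1a, fall in 4 different roles.

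Licensing factors differed most at Orc1 and Cdc6. Orc1, the largest subunit of ORC and an ATPase (ENSMUSG00000028587.18, chromosome 4, 108579423 to 108614833, mm10), had 3.32, 1.51, 2.48 and 2.54 CPM in SAS cells and 0.207, 0.147, 0.144 and 0.103 CPM in ANT cells. Cdc6, the ATPase that joins ORC at origins, had 4.11, 3.93, 4.07 and 2.86 CPM in SAS cells and 0.690, 0.956, 0.937 and 0.793 CPM in ANT cells. In neither gene did the clones overlap, and Orc1 held only 3 to 6 counts in each ANT library. The log2 fold change was 3.996 for Orc1 (SE 0.36, adjusted p 1.47e-05) and 2.14 for Cdc6 (SE 0.23, adjusted p 5.25e-05). Orc6, the smallest ORC subunit, stood at 18.04 ± 0.847 CPM in SAS cells and 17.6 ± 1.67 CPM in ANT cells (SD, n = 4 each), with an adjusted p of 0.813. Cdt1, which delivers the helicase and is destroyed once S phase begins, had 17.8, 33.5, 32.5 and 25.0 CPM in SAS cells and 29.2, 29.8, 48.1 and 46.3 CPM in ANT cells. It was not called (−0.50 on the log2 scale, SE 0.23, adjusted p 0.121), though it was without ANT replicates 1 and 3 (−0.80, adjusted p 0.0247), and its lowest library was SAS replicate 1.

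The 6 subunits of the MCM helicase, Mcm2 to Mcm7, form a ring of 1 copy each. Of these, 5 rose in SAS and Mcm4 did not pass the test. Mcm5 had 109, 82.5, 80.3 and 100.9 CPM in SAS cells and 44.5, 39.3, 42.7 and 37.7 CPM in ANT cells and rose by 1.18 on the log2 scale (SE 0.12, adjusted p 4.30e-05). Mcm6 followed at 168 ± 3.06 CPM in SAS cells and 85.2 ± 15.8 CPM in ANT cells and rose by 0.98 on the log2 scale (SE 0.13, adjusted p 0.000219). Its SAS libraries were the most even of any replication gene in that clone, and its ANT libraries fell into a lower pair (73.1 and 70.1 CPM in replicates 1 and 3) and a higher pair (100.8 and 96.7 CPM in replicates 4 and 5). Mcm3 rose by 0.73 (adjusted p 0.000287), Mcm7 by 0.57 (adjusted p 0.0305) and Mcm2 by 0.41 (adjusted p 0.00858) on the log2 scale. Mcm7 was no longer called without ANT replicate 4 (adjusted p 0.0845), ANT replicate 5 (0.0782), SAS replicate 1 (0.0833) or SAS replicate 6 (0.0745), and the adjusted p was 0.183 without ANT replicates 4 and 5 together. Mcm4 was at 116 ± 16.0 CPM in SAS cells and 104 ± 8.31 CPM in ANT cells (adjusted p 0.348).

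Set against exon length, the 6 MCM transcripts differed by up to 2.52-fold in SAS and 2.82-fold in ANT, but in a different order. The length is the union of annotated exons over all transcripts of a gene, 6956 bases for Mcm2 and 3589 for Mcm4. The rank of genes within a clone therefore depends on the annotation. Mcm6 was the highest in SAS, at 36.0 CPM per kb, and Mcm2 the lowest, at 14.3. In ANT Mcm4 was the highest, at 29.0 CPM per kb, and Mcm5 the lowest, at 10.3. The per-length ratio of Mcm5 to Mcm4, which library scaling cannot move, was 0.724, 0.752, 0.668 and 0.758 in SAS and 0.355, 0.323, 0.384 and 0.358 in ANT. For Mcm5 over Mcm4, and likewise for Mcm3 and Mcm6 over Mcm4, every SAS ratio was above every ANT ratio. These ratios, and those of other gene pairs below, were picked after the values were seen and are given without a test.

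Factors that activate the loaded helicase included the largest fold change of the 40 genes and a complex whose subunits differed from each other. Mcm10, a scaffold needed for helicase activation (ENSMUSG00000026669.14, chromosome 2, 4989714 to 5012791), had 2.68, 1.96, 2.86 and 1.38 CPM in SAS cells and 0.103, 0, 0.0360 and 0.0689 CPM in ANT cells, where the counts were 3, 0, 1 and 2. Its fitted log2 fold change of 5.28 (SE 0.53, adjusted p 3.07e-05) moved between 4.90 and 5.80 when 1 library was left out. Cdc45, which binds the MCM ring, was at 6.43 ± 1.19 CPM in SAS cells and 2.82 ± 0.369 CPM in ANT cells (log2 fold change 1.19, SE 0.19, adjusted p 0.000708). GINS is a ring of 4 subunits. Gins2 had 5.604, 4.03, 3.90 and 3.57 CPM in SAS cells and 0.966, 1.29, 0.757 and 0.793 CPM in ANT cells. Gins1 had 6.03, 3.37, 3.90 and 3.69 CPM in SAS cells and 1.0002, 1.29, 1.08 and 1.17 CPM in ANT cells. Both were higher in every SAS library than in any ANT library, with log2 fold changes of 2.17 (SE 0.26, adjusted p 9.80e-05) and 1.90 (SE 0.25, adjusted p 0.000177), and SAS replicate 1 was the highest for each. Gins3 and Gins4, by contrast, were not called, at 6.70 ± 0.675 and 22.7 ± 2.48 CPM in SAS cells and 8.09 ± 1.05 and 26.3 ± 3.28 CPM in ANT cells (log2 fold changes −0.27 and −0.21, adjusted p 0.175 and 0.225). Gins4 was called lower without ANT replicates 4 and 5 (−0.37, adjusted p 0.0452). Per length, Gins4 exceeded Gins2 by 16.1-fold in SAS and 84.1-fold in ANT, with annotated exon lengths of 1349 bases for Gins4 and 4097 for Gins2 entering both values. The exons of Gins2 overlap those of Gse1 on the other strand by 2758 bases, and Gse1 stood at 139 CPM in SAS cells and 132 CPM in ANT cells (adjusted p 0.811). How strand and overlaps were handled in the counting is not given in the sources used here, so the Gins2 level is less certain than that of genes without such an overlap.

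Of the polymerase and primase genes, Pole and Pola1 rose. Pole, the catalytic subunit of the leading strand polymerase, had 29.6, 24.6, 28.2 and 23.9 CPM in SAS cells and 11.2, 8.97, 5.66 and 6.52 CPM in ANT cells (log2 fold change 1.72, SE 0.21, adjusted p 0.000106). No ANT library came near the SAS range. Pole2, the second subunit of the same enzyme, had 9.35, 9.33, 7.52 and 10.4 CPM in SAS cells and 17.1, 13.5, 11.6 and 8.45 CPM in ANT cells. Its log2 fold change of −0.47 (SE 0.21) did not pass the test (adjusted p 0.103), though it did without ANT replicate 5 (−0.63, adjusted p 0.0211) or without ANT replicates 4 and 5 (−0.76, adjusted p 0.00620). The per-length ratio of Pole to Pole2 was 0.765 ± 0.164 in SAS and 0.166 ± 0.0303 in ANT. Pola1, the catalytic subunit of the polymerase that extends primers, had 25.2, 15.8, 21.1 and 19.6 CPM in SAS cells and 15.6, 16.2, 12.2 and 9.997 CPM in ANT cells. The ranges overlapped at SAS replicate 2, and the call (log2 fold change 0.60, SE 0.19, adjusted p 0.0305) was lost when any of 5 single libraries was left out, with adjusted p of 0.0789 without ANT replicate 4, 0.0717 without ANT replicate 5, 0.0852 without SAS replicate 1, 0.0695 without SAS replicate 3 and 0.0564 without SAS replicate 6. Pola2, Prim1 and Prim2, the partners of Pola1 in the primer-making complex, lay within 0.10 of 0 on the log2 scale (adjusted p 0.670 to 0.775), and Pold1, the catalytic subunit of the lagging strand polymerase, stood at 50.0 ± 3.97 CPM in SAS cells and 46.1 ± 7.77 CPM in ANT cells (adjusted p 0.516). Pold1 was called higher without ANT replicates 4 and 5 (0.32 on the log2 scale, adjusted p 0.0439).

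**Figure D3:**
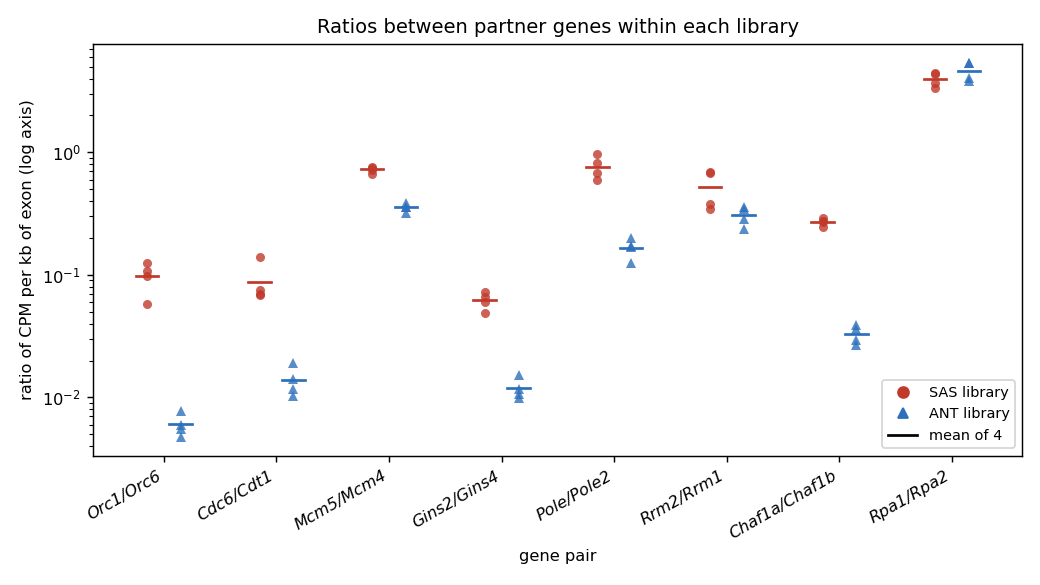
Ratio between the per-length levels of 2 genes in each library, on a log axis, for pairs that act in the same complex or step. Circles are SAS libraries, triangles ANT libraries and lines the mean of 4. For 6 of the 8 pairs every SAS ratio exceeds every ANT ratio, and for Rrm2 over Rrm1 and Rpa1 over Rpa2 the clones overlap.

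The sliding clamp Pcna, which tethers polymerases to DNA, was not called and had the highest level per length of all 40 genes, at 87.0 CPM per kb in SAS and 92.9 CPM per kb in ANT. It stood at 239, 181, 217 and 198 CPM in SAS cells and 255, 204, 216 and 217 CPM in ANT cells (log2 fold change −0.09, SE 0.12, adjusted p 0.557). Pcna has 2 annotated processed pseudogenes whose reads can be confused with its own. Replication factor C loads the clamp, and of its 5 subunits Rfc3 alone was called. Rfc3 had 17.97, 11.1, 13.7 and 12.9 CPM in SAS cells and 10.04, 10.4, 7.35 and 7.83 CPM in ANT cells (log2 fold change 0.65, SE 0.18, adjusted p 0.0183). Leaving out ANT replicate 4 or SAS replicate 1 ended this call (adjusted p 0.0537 and 0.0528). Rfc4 had 13.2, 6.80, 10.3 and 11.9 CPM in SAS cells and 8.10, 7.72, 6.89 and 6.00 CPM in ANT cells, and Rfc5 had 14.9, 17.95, 18.9 and 14.4 CPM in SAS cells and 12.3, 11.9, 14.9 and 12.9 CPM in ANT cells. Both overlapped between the clones, with log2 fold changes of 0.56 (adjusted p 0.0558) and 0.34 (adjusted p 0.0692). Rfc4 was called by DESeq2 (adjusted p 0.048), with scaling by library size only (0.0299) and without SAS replicate 2 (0.00769). Rfc5 was called with scaling by library size only (adjusted p 0.0232) and without ANT replicates 4 and 5 (0.0473). Rfc1, the large subunit, and Rfc2 had log2 fold changes of −0.23 and −0.03 (adjusted p 0.208 and 0.886). Without ANT replicates 4 and 5 Rfc1 was called lower (−0.46, adjusted p 0.00782).

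RPA coats single-stranded DNA at forks and at sites of repair, and its large subunit was the only replication gene called lower in SAS. Rpa1 (ENSMUSG00000000751.13, chromosome 11, 75298166 to 75348324) had 205, 203, 207 and 184 CPM in SAS cells and 267, 266, 251 and 239 CPM in ANT cells (log2 fold change −0.36, SE 0.09, adjusted p 0.00988). Every SAS library lay below every ANT library, and the call held without each library in turn (adjusted p 0.00916 to 0.0392). The difference is under 1.5-fold, and the test against that size did not call it. Rpa2 had 32.6, 24.7, 25.7 and 26.8 CPM in SAS cells and 37.7, 35.5, 25.0 and 23.8 CPM in ANT cells, where replicates 1 and 3 stood apart from 4 and 5. Its log2 fold change was −0.15 (adjusted p 0.525), −0.44 without ANT replicates 4 and 5, where it was called lower (adjusted p 0.0234), and 0.17 without ANT replicates 1 and 3 (adjusted p 0.373). Rpa3 had 17.2, 10.9, 14.3 and 15.8 CPM in SAS cells and 19.0, 16.6, 13.6 and 12.3 CPM in ANT cells, which also overlapped (adjusted p 0.767).

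Both enzymes that finish Okazaki fragments were called higher in SAS. Lig1, the ligase that seals the nicks, had 34.4, 28.7, 32.9 and 32.03 CPM in SAS cells and 14.5, 14.6, 23.6 and 22.0 CPM in ANT cells (log2 fold change 0.78, SE 0.17, adjusted p 0.00561). Fen1, the nuclease that trims the flaps, had 33.3, 22.5, 25.2 and 27.7 CPM in SAS cells and 23.3, 21.3, 18.7 and 16.1 CPM in ANT cells. Lig1 separated the clones and Fen1 did not. The Fen1 call (log2 fold change 0.45, SE 0.16, adjusted p 0.0421) has the largest adjusted p of the 21. It was lost when any library other than ANT replicate 1 or SAS replicate 2 was left out, with adjusted p of 0.0642 without ANT replicate 3, 0.102 without ANT replicate 4, 0.107 without ANT replicate 5, 0.117 without SAS replicate 1, 0.0607 without SAS replicate 3 and 0.0897 without SAS replicate 6. With upper-quartile scaling it was 0.0583. Exons of Fen1 overlap those of Gm10143 on the other strand by 1909 bases, of 2422 in all. Gm10143 stood at 0.108 CPM in SAS cells and 0.141 CPM in ANT cells.

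Genes of deoxynucleotide synthesis all rose. Tk1, the S phase thymidine kinase of the salvage pathway (ENSMUSG00000025574.13, chromosome 11, 117815526 to 117826092), had 5.12, 5.15, 5.69 and 4.05 CPM in SAS cells and 0.310, 0.368, 0.360 and 0.379 CPM in ANT cells. Its log2 fold change of 3.80 (SE 0.23) had the smallest adjusted p of the 40 genes, 1.17e-06, and stayed between 3.74 and 3.89 without each library in turn. Ribonucleotide reductase has a large subunit, Rrm1, and a small subunit, Rrm2, whose level is known to limit the enzyme in S phase. Rrm2 had 5.91, 7.26, 9.73 and 5.11 CPM in SAS cells and 2.48, 3.34, 2.60 and 3.14 CPM in ANT cells (log2 fold change 1.27, SE 0.23, adjusted p 0.00145). Rrm1 had 67.5, 42.0, 57.1 and 53.9 CPM in SAS cells and 42.0, 36.9, 35.9 and 36.2 CPM in ANT cells (log2 fold change 0.55, SE 0.14, adjusted p 0.0116), and leaving out ANT replicates 4 and 5 together ended the Rrm1 call (adjusted p 0.057). SAS replicate 3 was the highest for Rrm2 and SAS replicate 1 for Rrm1, and the per-length ratio of Rrm2 to Rrm1 overlapped between the clones, at 0.522 ± 0.185 in SAS and 0.307 ± 0.0570 in ANT. Tyms, which makes thymidylate, was at 4.95 ± 0.851 CPM in SAS cells and 3.15 ± 0.441 CPM in ANT cells (log2 fold change 0.65, SE 0.19, adjusted p 0.0236). Its adjusted p was 0.0703 without SAS replicate 1, 0.0662 without SAS replicate 6, 0.0553 without ANT replicate 1 and 0.0696 without ANT replicate 3. An annotated processed pseudogene of Tyms can share its reads.

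Chromatin assembly factor 1 places histones on new DNA, and its 2 larger subunits differed from each other. Chaf1a (ENSMUSG00000002835.8, chromosome 17, 56040439 to 56072289) had 7.86, 8.80, 9.25 and 8.13 CPM in SAS cells and 1.21, 1.03, 0.577 and 0.724 CPM in ANT cells and rose by 3.26 on the log2 scale (SE 0.24, adjusted p 4.05e-06). Chaf1b had 16.8, 17.2, 17.9 and 14.8 CPM in SAS cells and 16.3, 18.5, 11.3 and 10.6 CPM in ANT cells. SAS and ANT lay far apart for Chaf1a and overlapped for Chaf1b, whose log2 fold change was 0.24 (SE 0.18, adjusted p 0.345), and 0.60 without ANT replicates 1 and 3 (adjusted p 0.00757). The per-length ratio of Chaf1a to Chaf1b was 0.270 ± 0.0177 in SAS and 0.0329 ± 0.00565 in ANT. Exons of Chaf1a overlap those of Ubxn6 on the other strand by 4648 bases, with Ubxn6 at 56.2 CPM in SAS cells and 65.5 CPM in ANT cells (adjusted p 0.0816), so the absolute level of Chaf1a carries the same doubt as that of Gins2.

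Within a clone, the same library was often the highest or the lowest for many of the replication genes. SAS replicate 1 was the highest SAS library for 27 of the 40 genes, against 29.9% of all tested genes, and SAS replicate 2 was the lowest for 20. In ANT, replicate 1 was the highest for 21 genes, against 28.4% of all tested genes, and replicate 5 the lowest for 16. How often these libraries were the lowest over all tested genes was not computed. The 20 and 16 can therefore not be read as particular to replication genes. ANT replicates 1 and 3 both lay above replicates 4 and 5 for 22 genes and both below for 7 (Cdt1, Mcm6, Prim1, Pold1, Rfc5, Lig1 and Tyms), against 38.0% and 35.9% of all tested genes. Over all tested genes, log2(CPM + 1) correlated at 0.9968 between ANT replicates 1 and 3 and at 0.996 between 4 and 5. Across these pairs it correlated at 0.9837 to 0.9852. The test took the 4 ANT libraries as separate, without this split. Summed over the 40 genes, the level was 1898, 1575, 1693 and 1703 CPM in SAS cells and 1572, 1470, 1442 and 1388 CPM in ANT cells. All SAS sums were above all ANT sums, the lowest SAS sum, of replicate 2, by a narrow margin. The median coefficient of variation of a replication gene was 13.8% in SAS and 14.7% in ANT, against 13.4% and 17.6% over all tested genes.

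**Figure D4:**
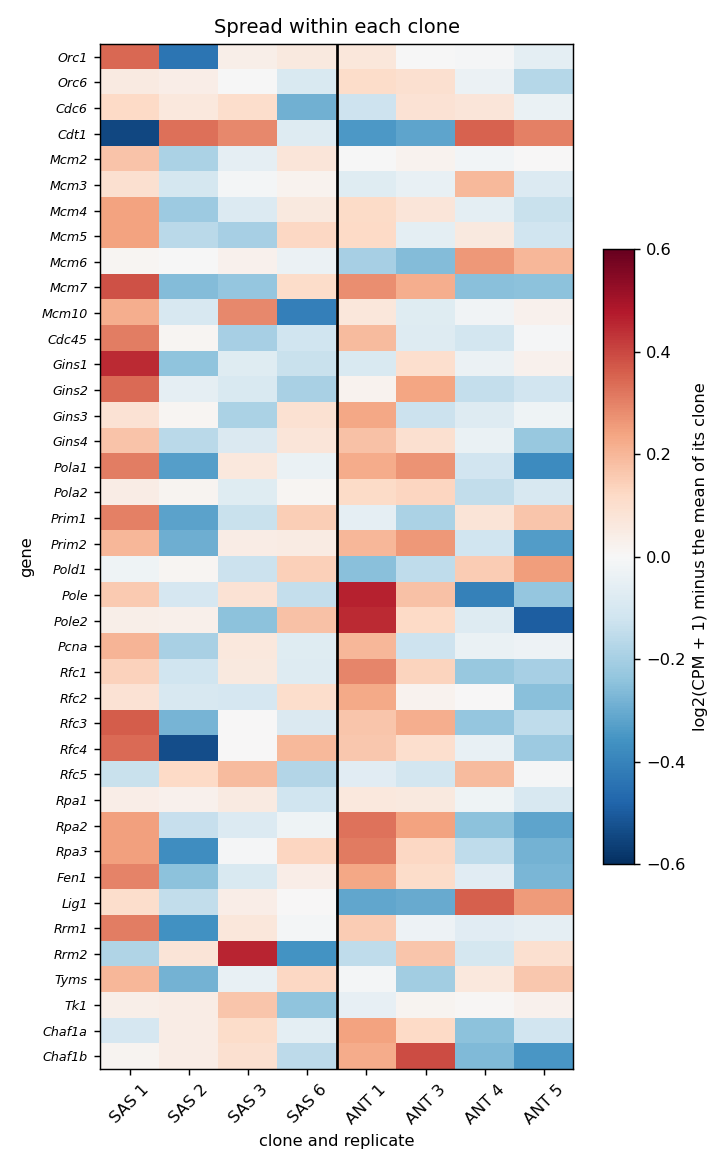
Deviation of each gene in each library from the mean of its own clone, on the log2(CPM + 1) scale, with the 4 SAS libraries left of the line and the 4 ANT libraries right of it. SAS replicate 1 is above the SAS mean for most genes and replicate 2 below it, and Cdt1, Mcm6 and Lig1 run against most genes in ANT.

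Sums by role showed where the bulk of the difference lay. Licensing genes summed to 795, 656, 682 and 732 CPM in SAS cells and 488, 475, 499 and 473 CPM in ANT cells. Nucleotide synthesis genes summed to 72.1 ± 11.3 CPM in SAS cells and 44.2 ± 2.54 CPM in ANT cells. The clones overlapped in the clamp and loader sum, at 330 to 418 CPM in SAS cells and 360 to 448 CPM in ANT cells, and the RPA sum was lower in SAS, at 226 to 255 CPM against 275 to 324 CPM in ANT cells. Single abundant genes made up most of 3 of these sums. In SAS cells Pcna (209 CPM) led the clamp and loader sum, Rpa1 (200 CPM) the RPA sum and Rrm1 (55.1 CPM) the nucleotide synthesis sum. Mcm2 to Mcm7, of which only Mcm4 was not called, held most of the licensing sum. Genes with large fold changes, such as Orc1 and Tk1, added little.

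Genes around the replication fork that are not among the 40 were read from lists written with earlier results of these data known. Of 23 further core replication genes, 5 rose and 5 fell in SAS, a share of 21.7% each way that is near the 19.8% and 17.7% of all genes. Ticrr, which brings Cdc45 to origins, was at 4.12 ± 0.871 CPM in SAS cells and 0.495 ± 0.190 CPM in ANT cells (log2 fold change 3.05, adjusted p 4.25e-05), and the nuclease gene Dna2 rose by 1.11 (adjusted p 0.00279). Donson, which acts in helicase assembly, fell to 26.9 ± 2.60 CPM in SAS cells, against 47.3 ± 7.09 CPM in ANT cells (adjusted p 0.000716). Of 18 fork protection and checkpoint genes, 6 rose (33.3%) and 2 fell (11.1%). The smallest p were those of the mitotic brake kinase Wee1 (log2 fold change 3.23, adjusted p 8.93e-07), the checkpoint kinase Chek1 (3.03, adjusted p 7.47e-06) and its adaptor Clspn (4.54, adjusted p 3.90e-05). Clspn held only 6, 6, 3 and 2 counts in the ANT libraries, and Ticrr 14, 7, 20 and 15. Both passed the filter on low counts only through SAS, which ties passing to being higher there. Of 12 genes of replication-coupled chromatin, 5 rose (41.7%) and 0 fell. Among those that rose were Uhrf1, which directs maintenance of DNA methylation (2.25, adjusted p 1.86e-06), the topoisomerase gene Top1 (0.83, adjusted p 0.000123) and the chromatin remodeller Hells (1.12, adjusted p 0.000247). The count of this list was 3 without ANT replicate 3, SAS replicate 1, SAS replicate 3 or SAS replicate 6, and 9 with DESeq2.

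Nucleotide supply beyond the 4 genes above was also higher in SAS for most called genes. Of 25 genes, 13 were higher (52%) and 5 lower (20%), against 19.8% and 17.7% of all tested genes, so the share lower is near that of all genes. Shmt1, a serine hydroxymethyltransferase that feeds thymidylate synthesis, was at 37.8 ± 6.84 CPM in SAS cells and 4.57 ± 0.335 CPM in ANT cells (log2 fold change 3.05, adjusted p 4.02e-07). Dctd, the deoxycytidylate deaminase, rose by 2.38 (adjusted p 9.78e-06). Rrm2b, the reductase small subunit used outside S phase, went the other way, at 18.7 ± 1.72 CPM in SAS cells and 50.7 ± 9.64 CPM in ANT cells (log2 fold change −1.44, SE 0.15, adjusted p 3.35e-05). The 2 small subunits of the reductase thus differed in opposite directions between the clones.

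Regulators and mitotic genes were read in the same way, against the 19.8% higher and 17.7% lower over all tested genes. Of 24 E2F and retinoblastoma pathway genes, 23 were tested, of which 9 rose (39.1%) and 2 fell (8.7%). E2f3, an activating E2F, was at 23.2 ± 1.95 CPM in SAS cells and 5.36 ± 1.38 CPM in ANT cells (log2 fold change 2.11, adjusted p 1.48e-05), Tfdp2, a partner of E2F proteins, rose by 1.06 (adjusted p 2.56e-05), and Cdc25a, the phosphatase that activates Cdk2, by 1.24 (adjusted p 5.51e-05). Of 30 mitotic genes, 20 rose (66.7%) and 1 fell (3.33%). Some of these 20 passed the filter on low counts only through SAS, which ties passing to being higher in SAS. Examples are Aurkb (2, 1, 1 and 0 counts in the ANT libraries) and Bub1 (4, 2, 2 and 1). The same holds for E2f8 (1, 0, 0 and 2 counts in ANT) among the E2F genes. The shares without such genes were not computed. Mki67, the proliferation marker, was at 28.6 ± 17.3 CPM in SAS cells and 1.30 ± 0.287 CPM in ANT cells (log2 fold change 4.45, adjusted p 5.24e-05). Kif11, a spindle motor, rose by 2.57 (adjusted p 8.06e-05) and Top2a, which decatenates chromosomes, by 2.61 (adjusted p 0.000141) on the log2 scale. Summed over the mitotic genes, the level in SAS was 228, 254, 315 and 172 CPM, highest in replicate 3, where the sum over the replication genes was highest in replicate 1. In ANT the mitotic genes summed to 134, 142, 129 and 129 CPM. The most abundant there were Cenpa (38.1 CPM, higher in SAS by 0.39 on the log2 scale), Incenp (21.8 CPM, not called) and Kif23 (17.8 CPM). Kif23 was the mitotic gene that fell, at 5.85 CPM in SAS cells (adjusted p 0.000373).

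**Figure D5:**
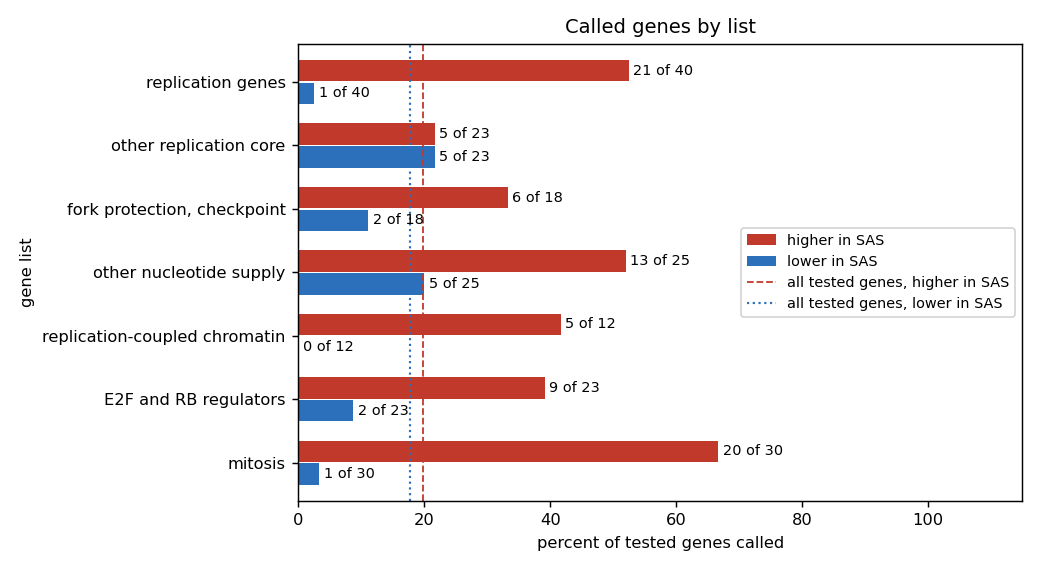
Percent of tested genes called higher in SAS (upper bar of each pair) and lower in SAS (lower bar), for the replication genes and the 6 other lists, with the counts beside the bars. The dashed and dotted lines mark the shares over all tested genes, 19.8% higher and 17.7% lower. The mitosis list has the largest share called higher, at 66.7%, and the further core replication genes have equal shares each way. Some genes, in the replication and mitosis lists among others, passed the filter on low counts only through SAS, which ties passing to being higher in SAS.

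Of the marker lists of other cells, the plasma cell, erythroid and germinal centre B cell sums were higher in every SAS library than in any ANT library, and the thymocyte, dendritic cell and B cell sums were lower. Of 8 germinal centre B cell markers, Rgs13 was at 0 in all libraries, and the summed level, 54.3 to 68.9 CPM in SAS cells and 46.6 to 51.3 CPM in ANT cells, came mainly from Fas, a death receptor gene that T cells also express (adjusted p 0.12), and S1pr2, which was higher in SAS (log2 fold change 0.69, adjusted p 0.00473). Of 7 plasma cell markers the sum was 196 to 335 CPM in SAS cells and 66.9 to 86.8 CPM in ANT cells, but its genes went in different directions. Irf4, which T cells also express, averaged 214 CPM in SAS cells and 13.2 CPM in ANT cells, where Xbp1 was the most abundant (65.1 CPM in SAS cells and 47.4 CPM in ANT cells, adjusted p 0.00334). Prdm1 was lower in SAS, at 0.994 CPM in SAS cells and 10.5 CPM in ANT cells (adjusted p 9.95e-06), and Jchain, at 5.87 CPM in SAS cells and 5.23 CPM in ANT cells, was not called. The 10 erythroid markers summed to 166 to 230 CPM in SAS cells and 73.5 to 117 CPM in ANT cells, nearly all of it Tfrc, the transferrin receptor gene of dividing cells, and the globin gene Hbb-bs averaged 1.32 CPM in SAS cells and 2.77 CPM in ANT cells. The 7 thymocyte markers summed to 225 to 250 CPM in SAS cells and 387 to 614 CPM in ANT cells, with Themis the most abundant, Dntt at 1.34 CPM in SAS cells and 74.6 CPM in ANT cells (adjusted p 4.96e-08), and Rag2 at 0. The 8 dendritic cell markers summed to 50.7 to 62.8 CPM in SAS cells and 148 to 174 CPM in ANT cells, with Xcr1 at 0. Nearly all of this sum was Ccr9 (35.9 CPM in SAS cells and 108 CPM in ANT cells) and Bst2 (18.1 and 49.4 CPM). Itgax (0.405 and 0.0172 CPM) and Zbtb46 (0.230 and 0.0624 CPM) went the other way. Both did not pass the filter on low counts, and every SAS library lay above every ANT library. The 8 natural killer and CD8 markers summed to 26.0 to 47.9 CPM in SAS cells and 16.3 to 70.02 CPM in ANT cells, with Ncr1 and Klra8 at 0, and these overlapping sums came from different genes. Nkg7 averaged 35.7 CPM in SAS cells and 0.619 CPM in ANT cells (adjusted p 3.07e-06), and Cd8b1 averaged 2.42 CPM in SAS cells and 33.6 CPM in ANT cells (adjusted p 0.000109). The part of these lists in the replication gene differences was not tested.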

How the data were processed

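The authors' deposited table holds a raw whole-number count for each gene in the 8 libraries. Per the submitters' processing notes, STAR and featureCounts were used with mm10, and per the labels' protocols the libraries were strand-specific TruSeq mRNA libraries. The settings for strand and multi-mapped reads are not given in the sources used here. Symbols, exon lengths and coordinates come from GENCODE M21 (38872 of 39056 IDs matched). Exons of 15 of the 40 genes overlap another gene's exons, 3 of them on the same strand.

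Counts were filtered with edgeR 4.0.16 defaults (12619 genes kept), scaled with TMM and tested with its robust quasi-likelihood test in R 4.3.3, without covariates. Each SE was obtained from the fold change and its F statistic. Levels per kb divide CPM by the union of exons. The procedure was tested on simulated data with known fold changes. Alternatives used RLE, upper-quartile and library size scaling, other filters, DESeq2 1.42.0, limma-voom (limma 3.58.1), stricter thresholds, left-out libraries and a replicate block. Depth, 27600959 to 31810799 counts, leaves few counts for genes under 0.2 CPM, such as Orc1 and Mcm10 in ANT.

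Members and lists were chosen with earlier results of these data known. Every member is named; values in all libraries are given for the 3 of each role with the smallest p, and, chosen after the values were seen, for Cdt1 and Pcna. The 3 genes with the smallest p are named from each other list, and further genes were chosen after the values were seen.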

Additional observations from a re-analysis of the deposited data

Results flagged for a closer look

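In 4 of 80 checks, each on 1 gene in the 4 libraries of 1 clone, 1 library stood far from the other 3 (its gap over 0.829 of the range), and chance flags about 1 in 20 such groups. Cdc6 was at 2.86 CPM in SAS replicate 6, where the remaining SAS libraries had 3.93 to 4.11 CPM. Rpa1 was at 184 CPM in SAS replicate 6, against 203 to 207 CPM in the others. Mcm3 was at 54.5 CPM in ANT replicate 4, against 44.8 to 45.9 CPM in the other ANT libraries. Rrm1 was at 42.0 CPM in ANT replicate 1, against 35.9 to 36.9 CPM in the others. All 4 genes stayed called without the library concerned.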

How the results depend on the processing

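The count of replication genes higher in SAS was 21 and ran from 18 to 23 under the other scalings, filters and tools, from 16 to 22 without 1 library, and was 12 against a 1.5-fold change and 15 at an adjusted p under 0.01. Of these 21, 15 were called in every alternative other than the 2 stricter thresholds, and Mcm7, Pola1, Rfc3, Fen1, Rrm1 and Tyms were lost in at least 1. Of the 18 not called, 9 were called in no alternative. The count lower in SAS was 1, and 0 against a 1.5-fold change, 1 to 2 without 1 library, 5 without ANT replicates 4 and 5, 2 without ANT replicates 1 and 3, and 3 with the replicate block. The cause was not tested.

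All genes called, 4725, fell to 1836 against a 1.5-fold change and 3044 at an adjusted p under 0.01. Against a 1.5-fold change, further core genes called went to 2 (10 before), other nucleotide supply to 6 (18) and E2F regulators to 7 (11); core genes were 4 at an adjusted p under 0.01. The 5 replication-coupled chromatin genes became 8 with library size scaling, 9 with DESeq2, 3 with no filter and under both stricter thresholds, and 3 to 5 without 1 library. Calls higher in SAS were 52.8% of all calls with TMM and 64.8% with library size only.

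Replicate numbers 1 and 3 occur in both clones, and same-numbered libraries had correlations of 0.47 and −0.22 in their deviations from the group means. With 2 pairs of opposite sign and no label that ties them, the numbers were not taken as pairs. With the replicate block, 22 genes were higher and 3 lower (all genes called: 5798). The 3 were Rpa1, Pole2 (−0.8564, adjusted p 0.000264) and Rfc1 (−0.3331, adjusted p 0.0376), and Rfc4 (adjusted p 0.0308) and Rfc5 (0.0401) were among the 22.

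None of the genes that turned direction was called with all 8 libraries in the analysis above, but without ANT replicates 4 and 5 Rfc1, Rpa2 and Pold1 were called, and without ANT replicates 1 and 3 Chaf1b was. With library size only, log2 fold changes became 0.0030 (Prim1), 0.0029 (Pcna), 0.0737 (Rfc2) and 0.0202 (Rpa3). With the block they became −0.0404 (Orc6), −0.0782 (Pola2), 0.1082 (Prim1), −0.0335 (Prim2) and 0.0003 (Pcna). Without ANT replicates 4 and 5 they became −0.0881 (Orc6), −0.0858 (Pola2), 0.0162 (Prim1), −0.1735 (Prim2) and −0.0810 (Chaf1b). Without ANT replicates 1 and 3 they became −0.0761 (Pold1), 0.0003 (Rfc1), 0.1037 (Rfc2), 0.1690 (Rpa2) and 0.1707 (Rpa3). Without 1 library, values ran from −0.0306 to 0.0720 (Orc6), −0.0068 to 0.0911 (Pola2), −0.2098 to 0.0060 (Prim1), −0.0488 to 0.1686 (Prim2), −0.1159 to 0.0513 (Rfc2) and −0.1833 to 0.0383 (Rpa3).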
